A study of Arabidopsis thaliana with 4 samples.

Results

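A set of 10 genes of mitochondrial stress responses and mitochondrial dicarboxylate transport was followed in Arabidopsis thaliana seedlings given glutamate. They were picked by gene identifier from the 33602 genes of the deposited expression table, with earlier results of these same libraries known, and all 10 were present. They encode the alternative oxidases AOX1A (AT3G22370) and AOX1D (AT1G32350), the outer membrane ATPase OM66 (AT3G50930), the stress protein UPOX (AT2G21640), the external NAD(P)H dehydrogenase NDB2 (AT4G05020), the dicarboxylate carriers UCP5, also called DIC1 (AT2G22500), and DIC2 (AT4G24570), the uncoupling protein UCP1 (AT3G54110), and the transcription factors ANAC013 (AT1G32870) and ANAC017 (AT1G34190). Because the choice rested on the same contrast described here, the values of these 10 genes are given as a description without p-values.

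Glutamate libraries came from 14-day-old Col-0 seedlings moved for 0.5 h to nitrogen-free basal salts with 2.5 mM glutamate, and control libraries from seedlings of the same age and ecotype at 0 h, on nitrogen-free salts without glutamate. Both groups had grown in hydroponic boxes without nitrogen under 16 h of light a day at 22 °C, so all 4 libraries come from nitrogen-starved whole seedlings. Each group has 2 RNA-seq libraries, all with the same batch label, and the labels do not say whether they came from separate cultures, and a p-value here compares libraries whose spread may be technical in origin. No library stands for a 0.5 h move onto glutamate-free medium, so the effects of glutamate, of the move and of the elapsed time cannot be told apart.

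In plant mitochondria the alternative oxidases take electrons directly from the ubiquinone pool and pass them to oxygen, which bypasses the proton-pumping cytochrome pathway, and the type II NAD(P)H dehydrogenases feed electrons into that pool without pumping protons. When mitochondria are impaired, the membrane-bound factors ANAC017 and ANAC013 are released from the endoplasmic reticulum and induce a set of nuclear genes known as the mitochondrial dysfunction stimulon, of which AOX1A, UPOX, OM66 and NDB2 are standard markers. The dicarboxylate carriers of the inner membrane exchange malate, oxaloacetate and succinate, and so link the citrate cycle to the cytosol, where carbon skeletons are used for amino acid metabolism.

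Recovered reads came to 21776595 and 24599752 in the glutamate libraries and to 27674435 and 23669908 in the control libraries, and the floor of 3 reads for a 1 kb gene lies at 0.104 to 0.152 RPKM, the deposited unit, which scales reads by gene length and library size. A total of 17750 genes averaged 1 RPKM or more and were tested with limma, and a gene was called where its adjusted p was under 0.05. This applied to 30.8% of them, 16.3% higher and 14.6% lower in glutamate, and the median log2 difference was -0.06. Higher genes made up 52.8% of the calls as deposited, 36.0% with library totals and 63.2% when centred on control genes. The 5 shoot markers summed to 8947 and 7543 RPKM in glutamate libraries and to 12953 and 11936 RPKM in control libraries, and 3 of the 5 were lower by limma. RBCS1A (AT1G67090) was the largest part of each shoot sum and was not called (log2 change -0.18, limma adjusted p = 0.525). The log2 changes of the 5 ran from -2.35 (LHCB1.1, AT1G29920) to that of RBCS1A, both named after their values were seen. The 6 root markers summed to 32.2 and 30.7 RPKM in glutamate libraries and to 55.7 and 47.2 RPKM in control libraries, with the root hair gene EXPA7 at 1.09 RPKM or less and the iron transporter gene IRT1 at 0.41 RPKM or less in each library. Of the 3 root markers tested, 1 was lower. This was the phosphate transporter gene PHT1;1 (AT5G43350), named after its values were seen. It was at 19.4 and 19.0 RPKM in glutamate libraries and at 39.3 and 35.8 RPKM in control libraries, the largest part of each root sum. Its deposited fraction named maxMultiRatio, which the file header does not define, was 0.535. The root marker SCR (AT3G54220) had a log2 change of 0.01. The 7 control genes, widely used as references in this species, summed to 2437 and 2394 RPKM in glutamate libraries and to 3251 and 2919 RPKM in control libraries, with 0 called by limma (2 lower at an unadjusted p under 0.05, 0 with voom weights). UBQ10 (AT4G05320) was the largest part of each of these sums, at 1360 and 1248 RPKM in glutamate libraries and at 1989 and 1694 RPKM in control libraries. The log2 changes of the 7 ran from -0.49 (UBQ10) to 0.63 (UBC9, AT4G27960), both named after their values were seen. The part of these marker and control levels in the results was not tested, and in whole seedlings fewer cells of a type cannot be told apart from less RNA per cell.

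The 3 largest differences belonged to the 2 dicarboxylate carriers and OM66, which were low in control seedlings and abundant after 0.5 h of glutamate. AOX1D and NDB2 were several times higher, AOX1A and UCP1 were moderately higher, ANAC013 was 1.42-fold lower without being called, UPOX overlapped between groups, and ANAC017 was at 1.07 times its control mean. All 10 passed the filter on low values. By limma, 7 of them were called higher, beside 16.3% of all tested genes, and 0 lower, beside 14.6% (1 lower at an unadjusted p under 0.05, 0 with voom weights). Both glutamate libraries lay above both control libraries in 8 of the 10 genes, beside 29.1% of tested genes, and below in 1, beside 37.1%, so that 9 did not overlap between groups, beside 66.2%. Nothing is read from these counts, since the contrast itself chose the genes. The median log2 difference of the 10 genes was 1.17.

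**Figure D1:**
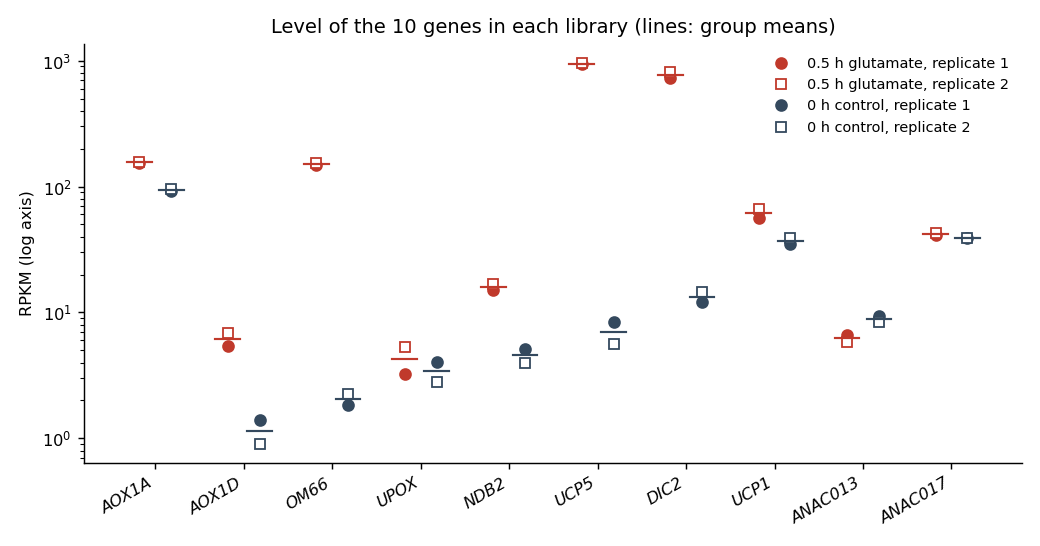
RPKM on a log axis for each of the 10 genes in the 2 glutamate libraries (red, left) and the 2 control libraries (blue, right), with lines at the group means. UCP5, DIC2 and OM66 stand 2 orders of magnitude or close to it above their controls, while the libraries of UPOX overlap between groups.

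UCP5 encodes a carrier of malate and related dicarboxylates. It was at 936 and 957 RPKM in glutamate libraries, against 8.33 and 5.61 RPKM in control libraries. These levels rest on 28258 and 33518 reads in glutamate libraries and on 366 and 215 reads in control libraries, so the control level is well above the floor. The mean was 136-fold higher with glutamate, and the lower glutamate library was 112-fold above the higher control library. On the log2(RPKM + 1) scale, which understates differences of low genes, the difference was 6.92 ± 0.19 (SE), rank 5 among the 17750 tested genes. Ranked by level, UCP5 stood at places 100 and 102 of all genes in the glutamate libraries and at places 10557 and 12381 in the control libraries.

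DIC2 encodes the second of these carriers, which is known to import malate and export citrate. It was at 731 and 812 RPKM in glutamate libraries, against 12.1 and 14.6 RPKM in control libraries. The groups lay far apart, with a 57.8-fold higher mean in glutamate and a log2 difference of 5.75 ± 0.15 (SE), rank 24. The order of the carrier pair differed between the groups: UCP5 was above DIC2 in both glutamate libraries and below it in both control libraries. The third gene of the group, DIC3 (AT5G09470), had at most 1 read in any library, under the floor of 3 reads.

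OM66, also annotated as BCS1, encodes an AAA-type ATPase of the outer mitochondrial membrane linked to cell death and salicylate signalling. It was at 147 and 154 RPKM in glutamate libraries, against 1.84 and 2.26 RPKM in control libraries. These rest on 6725 and 8191 reads in glutamate libraries and on 122 and 131 reads in control libraries. Its mean was 73.6-fold higher in glutamate, with a log2 difference of 5.64 ± 0.13 (SE), rank 28. In all, 58 of the 17750 tested genes (0.327%) had a log2 difference of at least 5, and UCP5, DIC2 and OM66 were among them.

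The upstream sequences of these 3 genes are shown because they had the largest differences. They were read from the RefSeq TAIR10.1 assembly, up to 300 bases before the annotated gene start and cut short where an exon of a neighbouring gene begins, which leaves 238 bases for DIC2. Capitals mark the W-box letters TTGACC or TTGACT and the letters CGCGTT of the rapid stress response element, searched on both strands.
UCP5 (chr2:9564851-9565150, minus strand): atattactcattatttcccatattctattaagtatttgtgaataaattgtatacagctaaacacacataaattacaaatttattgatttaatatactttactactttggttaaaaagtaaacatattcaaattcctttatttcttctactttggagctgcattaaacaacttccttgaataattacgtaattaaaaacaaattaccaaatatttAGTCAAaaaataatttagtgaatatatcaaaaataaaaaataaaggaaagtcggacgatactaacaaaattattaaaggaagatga
DIC2 (chr4:12686221-12686458, plus strand): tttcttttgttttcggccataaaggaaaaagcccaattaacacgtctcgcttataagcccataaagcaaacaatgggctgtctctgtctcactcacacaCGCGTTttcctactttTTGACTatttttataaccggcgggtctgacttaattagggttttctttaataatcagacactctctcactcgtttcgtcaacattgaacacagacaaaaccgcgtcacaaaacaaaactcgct
OM66 (chr3:18929226-18929525, plus strand): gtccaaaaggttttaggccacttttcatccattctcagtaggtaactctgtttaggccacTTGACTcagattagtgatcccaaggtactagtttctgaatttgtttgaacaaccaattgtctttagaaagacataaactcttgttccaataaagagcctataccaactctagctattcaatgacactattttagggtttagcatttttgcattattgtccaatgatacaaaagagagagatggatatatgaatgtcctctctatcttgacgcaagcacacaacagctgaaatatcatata
Each of the 3 sequences holds 1 W-box, the element that WRKY factors bind. Of 27443 promoters of 300 bases, 32.3% hold a W-box, and so did 7 of the 10 genes studied. CGCGTT, known as a target of calmodulin-binding CAMTA factors, was in 3.08% of all promoters and in 2 of the 10 genes, DIC2 and AOX1A. These matches are letters in a window and not shown binding sites.

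UCP5, DIC2 and OM66 are also the 3 genes of the 10 that are annotated with a single exon, and so without introns. On TAIR10.1, UCP5 spans chr2:9562774-9564850, DIC2 chr4:12686459-12687650 and OM66 chr3:18929526-18932181. The other 7 genes have at least 3 exons, and NDB2 has 10. Across the tested protein-coding genes, 26.9% of the 2769 genes with 1 exon were called higher, against 14.5% of the 14429 genes with more exons. Called lower were 17.9% of the genes with 1 exon, against 14.1% of those with more. Of the 58 genes with a log2 difference of at least 5, 30 had 1 exon, UCP5, DIC2 and OM66 among them, and 28 had more. Whether exon number has a part in these differences was not tested.

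UCP1, which lowers the proton gradient and has been shown to carry aspartate, glutamate and dicarboxylates in reconstituted vesicles, differed far less. It was at 56.6 and 66.5 RPKM in glutamate libraries, against 35.0 and 39.2 RPKM in control libraries. The groups did not overlap, and the mean was 1.66-fold higher in glutamate, a log2 difference of 0.71 ± 0.14 (SE). Its call was lost without glutamate replicate 2 and without the filter on low values. The deposited fraction named maxMultiRatio, which the file header does not define, was 0.0499 for UCP1 and at most 0.00388 for the other 9 genes.

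The rest of the uncoupling family did not pass the test. UCP2 (AT5G58970) was at 4.52 and 3.55 RPKM in glutamate libraries and at 3.93 and 3.40 RPKM in control libraries (limma adjusted p = 0.667). UCP3 (AT1G14140) was at 11.5 and 11.9 RPKM in glutamate libraries and at 12.5 and 11.4 RPKM in control libraries (limma adjusted p = 0.910). The makeup of the family, as shares of its summed RPKM, therefore differed between the groups. UCP5 held 53.8% and 51.7% in glutamate libraries against 11.6% and 7.55% in control libraries, while UCP1 held 3.25% and 3.59% in glutamate libraries against 48.8% and 52.8% in control libraries.

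Set against 25 mitochondrial carrier genes, UCP5 and DIC2 together made up 60.6% and 63.2% of the summed RPKM in glutamate libraries, and 1.91% and 2.01% in control libraries. The sum over the 25 genes was 2751 and 2799 RPKM in glutamate libraries, against 1066 and 1008 RPKM in control libraries. The ADP/ATP carrier gene AAC1 (AT3G08580) held the largest share in control libraries, at 420 and 332 RPKM, and was at 444 and 366 RPKM in glutamate libraries (limma adjusted p = 0.690). Of the 18 tested carrier genes outside the uncoupling family, 1 was higher and 1 lower (5.56% each, beside 16.3% and 14.6% of all tested genes). They were APC2 (AT5G51050), for an ATP/phosphate carrier, with a log2 change of 0.71 ± 0.16 (SE, limma adjusted p = 0.0215), and AAC3 (AT4G28390), with -0.47 ± 0.13 (limma adjusted p = 0.0412). They were singled out with their values in view, and both lost their calls without glutamate replicate 2 (adjusted p = 0.108 and 0.152) or without control replicate 1 (adjusted p = 0.0547 and 0.188). AAC3 also lost its call without glutamate replicate 1 (adjusted p = 0.169) and without control replicate 2 (adjusted p = 0.0627).

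**Figure D2:**
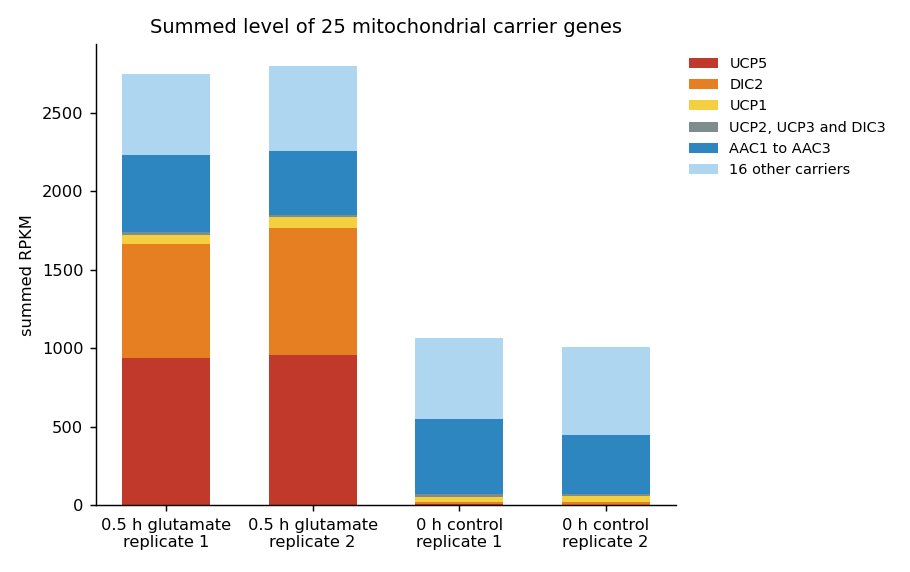
Summed RPKM of 25 mitochondrial carrier genes in each library, stacked by gene or gene group. UCP5 and DIC2 fill 60.6% and 63.2% of the 2 glutamate bars (left) and about 2% of the control bars (1.91% and 2.01%), while the ADP/ATP carriers and the 16 other carriers take up similar heights in all 4 bars.

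Among the alternative oxidases, AOX1A is the main stress-induced isoform. It was at 154 and 157 RPKM in glutamate libraries, against 92.7 and 95.8 RPKM in control libraries. Libraries of one group lay within a few RPKM of each other and the groups did not overlap. The mean was 1.65-fold higher in glutamate, a log2 difference of 0.72 ± 0.12 (SE), and 0.41 with quantile normalization. AOX1D, a second isoform induced by stress and in ageing leaves, was at 5.43 and 6.83 RPKM in glutamate libraries, against 1.39 and 0.906 RPKM in control libraries. It rested on 143 and 209 reads in glutamate libraries and on 53 and 30 reads in control libraries, and its mean was 5.34-fold higher in glutamate, a log2 difference of 1.73 ± 0.19 (SE). AOX1A still made up 96.4% and 95.6% of the summed oxidase RPKM in glutamate libraries, against 98.4% and 98.9% in control libraries. The other 3 oxidase genes were below the minimum mean and not tested. Without the filter on low values, 1 of these 3 was called higher, and all 3 had at most 6 reads in any library. AOX2 (AT5G64210) had 4 and 6 reads in glutamate libraries and 0 in both control libraries.

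NDB2, whose product oxidises cytosolic NADH at the outer face of the inner membrane and is known to act together with AOX1A, was at 15.1 and 16.9 RPKM in glutamate libraries, against 5.16 and 3.96 RPKM in control libraries. The groups did not overlap, with a 3.50-fold higher mean in glutamate and a log2 difference of 1.62 ± 0.16 (SE). Of the 4 other tested type II dehydrogenase genes, 0 were higher, beside 16.3% of all tested genes (0 also at an unadjusted p under 0.05 and with voom weights). Lower was 1 of the 4 (25%, beside 14.6%). This was NDA1 (AT1G07180), for an internal enzyme, which fell to 10.3 and 6.92 RPKM in glutamate libraries, against 18.7 and 14.9 RPKM in control libraries (limma adjusted p = 0.0284). NDA1 was chosen after its values were seen and lost its call without the filter on low values (adjusted p = 0.141), when values were centred on control genes (adjusted p = 0.0598) or where glutamate replicate 2 was left out (adjusted p = 0.0711). The share of NDB2 in the summed RPKM of the 7 dehydrogenase genes was 21.9% and 25.9% in glutamate libraries, against 7.85% and 6.42% in control libraries.

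UPOX, a short gene known as a marker of oxidative stress, was at 3.26 and 5.33 RPKM in glutamate libraries, against 4.05 and 2.78 RPKM in control libraries. The groups overlapped, at 34 and 65 reads in glutamate libraries and 62 and 37 reads in control libraries. The log2 difference was 0.25 ± 0.25 (SE), and it turned to -0.04 without glutamate replicate 2.

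ANAC017, the factor that starts the mitochondrial response, was at 41.2 and 42.5 RPKM in glutamate libraries, against 39.1 and 38.9 RPKM in control libraries. Its log2 difference was 0.10 ± 0.12 (SE), and it turned to -0.09 with library totals and to -0.10 with quantile normalization. ANAC013, a related factor that is itself a target of the response, was at 6.62 and 5.82 RPKM in glutamate libraries, against 9.31 and 8.38 RPKM in control libraries. Its log2 difference was -0.45 ± 0.14 (SE), and it was not called except with library totals (-0.62) and with the replicate number as a block.

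**Figure D3:**
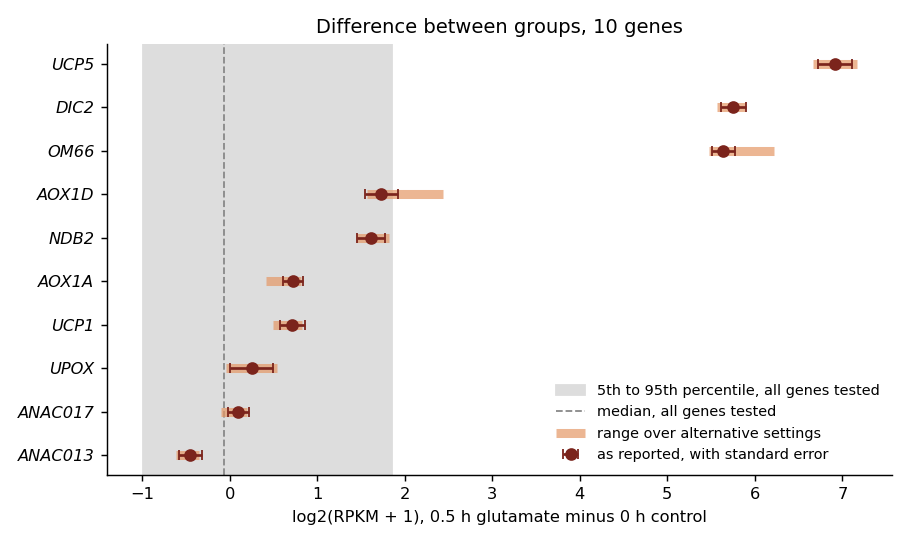
Difference in log2(RPKM + 1), 0.5 h glutamate minus 0 h control, for each of the 10 genes with its standard error (points and bars) and its range over the alternative settings (orange), beside the 5th to 95th percentile of all 17750 tested genes (grey, -0.99 to 1.85). UCP5, DIC2 and OM66 lie far outside that range at 5.64 to 6.92, and the points of the other 7 genes lie inside it.

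ANAC013 and ANAC017 bind an element known as the mitochondrial dysfunction motif. It was searched as CTTGNNNNNCANG on both strands, with N also at the position where the published motif allows A or C. Of 27443 promoters of 300 bases, 2.08% hold it, and so did 3 of the 10 genes, UPOX, NDB2 and ANAC017. The matches are shown with their flanks, in the direction of each gene, because they can be set beside the levels of their genes. Capitals mark the motif, whose letters fit on both strands in UPOX and NDB2 and only in reverse in ANAC017.
UPOX (chr2:9254319-9254348, plus strand): tttagtaaCTTGCTCTCCAAGgagatctag
NDB2 (chr4:2572340-2572369, plus strand): cgatctggCTTGGCCACCAAGattgtttga
ANAC017 (chr1:12451287-12451316, plus strand): acctctgtCGTGTCAGACAAGaatgttgga
They begin 51 bases before the start of UPOX, 79 bases before that of NDB2 and 110 bases before that of ANAC017. With 1000 bases upstream the same 3 genes held a match, a further one in NDB2 lying in an exon of AT4G05018, beside 7.61% of all promoters, and these letters were not in that window for the other 7, among them UCP5, DIC2 and OM66. Of the 3 genes with a match, NDB2 was 3.50-fold higher in glutamate, while UPOX and ANAC017 were at 1.26 and 1.07 times their control means. These matches too are letters in a window, and a part of the motif in the levels of any of the 10 genes was not tested.

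Ordered by mean level in glutamate libraries, the 10 genes ran UCP5 (946 ± 14.7 RPKM, SD, n = 2), DIC2 (772 ± 57.9), AOX1A (156 ± 2.09), OM66 (151 ± 5.17), UCP1 (61.6 ± 7.03), ANAC017 (41.9 ± 0.95), NDB2 (16.0 ± 1.24), ANAC013 (6.22 ± 0.57), AOX1D (6.13 ± 0.99) and UPOX (4.29 ± 1.47). In that order the libraries of ANAC013 and AOX1D overlapped, and those of AOX1A and OM66 came within 0.1 RPKM of each other. In control libraries the order was AOX1A (94.2 ± 2.21 RPKM), ANAC017 (39.0 ± 0.11), UCP1 (37.1 ± 2.93), DIC2 (13.3 ± 1.80), ANAC013 (8.85 ± 0.65), UCP5 (6.97 ± 1.93), NDB2 (4.56 ± 0.85), UPOX (3.42 ± 0.90), OM66 (2.05 ± 0.30) and AOX1D (1.15 ± 0.34). There, the pairs of ANAC017 with UCP1 and of NDB2 with UPOX overlapped. The summed RPKM of the 10 genes was 2096 and 2225 in glutamate libraries, against 209 and 212 in control libraries, and UCP5 with DIC2 held 79.5% of it in both glutamate libraries and 9.77% and 9.52% in control libraries.

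The genes nearest in pattern were sought over the 4 libraries, as the distance between log2(RPKM + 1) profiles after subtracting each gene's mean. With 2 groups of 2 libraries, genes with group differences of like size lie near each other by this measure, and shared regulation was not tested. For OM66 the nearest of all tested genes was DIC2, at a distance of 0.13, followed by AT2G20562 (0.19) and AT5G65300 (0.20). OM66 and DIC2 were both chosen on this contrast, with log2 differences of 5.64 and 5.75. The genes nearest to UCP5 were WRKY46 (AT2G46400, distance 0.24), for a transcription factor, and XTH18 (AT4G30280, 0.26), for a cell wall enzyme. AT1G15010 came next at 0.30. For AOX1A they were AT5G12900 (0.03), the actin depolymerizing factor gene ADF6 (AT2G31200, 0.03) and FATB (AT1G08510, 0.04), for a fatty acid thioesterase. For ANAC017, whose values were nearly level, the nearest were AT5G60980, ATG18H (AT1G54710) and AT1G80910, at distances of 0.01 in each case.

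Other genes of mitochondrial function were taken from 9 lists, which were drawn up with earlier results of these data known and not picked for how they moved. Apart from the 10, they held 98 genes, of which 85 were tested. By limma 14 of these were higher (16.5%, beside 16.3% of all tested genes) and 7 lower (8.24%, beside 14.6%). Their median log2 change was 0.07, beside -0.06 over all tested genes.

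The list of other transcripts of the mitochondrial dysfunction response split in both directions, with 4 higher and 4 lower of 11 tested. Each count is 36.4% of the 11, beside 16.3% higher and 14.6% lower over all tested genes. AT5G51440, which encodes an HSP20-like chaperone, rose to 137 and 103 RPKM in glutamate libraries, against 20.1 and 14.1 RPKM in control libraries, a log2 change of 2.75 ± 0.22 (SE, limma adjusted p = 0.000609). TIM17-1 (AT1G20350), for an import channel subunit of the inner membrane, rose to 11.8 and 17.0 RPKM in glutamate libraries, against 3.49 and 4.22 RPKM in control libraries (limma adjusted p = 0.00279). The glucosyltransferase gene UGT74E2 (AT1G05680) fell to 6.16 and 9.24 RPKM in glutamate libraries, against 63.0 and 40.4 RPKM in control libraries (log2 change -2.59 ± 0.27, limma adjusted p = 0.00156). The sulfotransferase gene SOT12 (AT2G03760) fell to 24.2 and 24.4 RPKM in glutamate libraries, against 92.5 and 78.2 RPKM in control libraries (limma adjusted p = 0.000511). The glutathione transferase gene GSTU24 (AT1G17170) fell to 65.0 and 106 RPKM in glutamate libraries, against 249 and 211 RPKM in control libraries (limma adjusted p = 0.00919), and lost its call without the filter on low values (adjusted p = 0.0801). The other calls, named after their values were seen, were the cytochrome P450 gene CYP81D8 (AT4G37370, log2 change -1.01 ± 0.22, adjusted p = 0.117 without the filter on low values), AT5G64400 for a CHCH domain protein (0.53 ± 0.12) and the mitochondrial co-chaperone gene MGE2 (AT4G26780, 0.50 ± 0.13). AT5G64400 lost its call without any single library (adjusted p = 0.0858 to 0.126), and MGE2 without glutamate replicate 1, glutamate replicate 2 or control replicate 1 (adjusted p = 0.12 to 0.168). AT5G09570, for a Cox19-like CHCH family protein and also on this list, had at most 2 reads in any library and was not tested. As background, UGT74E2, SOT12 and GSTU24 products attach sugar, sulfate or glutathione to small molecules, while AT5G51440 and TIM17-1 belong to protein folding and import.

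**Figure D4:**
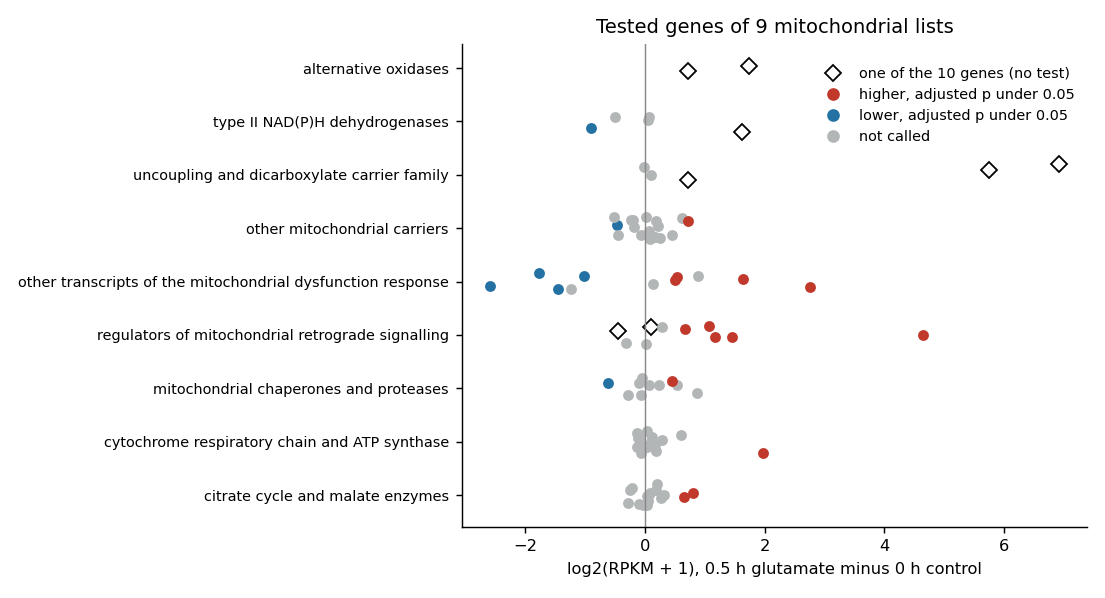
Difference in log2(RPKM + 1), 0.5 h glutamate minus 0 h control, for the tested genes of 9 mitochondrial lists, coloured by call in limma, with the 8 of the 10 described genes that belong to a list as open diamonds. Most genes of the respiratory chain and citrate cycle lists lie near 0, and the list of other dysfunction transcripts reaches from -2.59 to 2.75.

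Among regulators of mitochondrial signalling to the nucleus, 5 of the 8 tested genes other than ANAC013 and ANAC017 were higher and 0 lower (0 lower also at an unadjusted p under 0.05 and with voom weights). These counts are 62.5% and 0% of the 8, beside 16.3% and 14.6% of all tested genes. WRKY40 (AT1G80840), a repressor that acts on mitochondrial stress genes, rose to 341 and 301 RPKM in glutamate libraries, against 13.0 and 10.9 RPKM in control libraries, a log2 change of 4.64 ± 0.15 (SE, limma adjusted p = 4.79e-05). WRKY15 (AT2G23320) rose to 266 and 399 RPKM in glutamate libraries, against 120 and 171 RPKM in control libraries (limma adjusted p = 0.0217). It lost its call with quantile normalization (adjusted p = 0.0657) and without the filter on low values (adjusted p = 0.132). ANAC016 (AT1G34180), which lies next to ANAC017 on the chromosome, rose to 14.7 and 16.0 RPKM in glutamate libraries, against 5.12 and 4.78 RPKM in control libraries, a log2 change of 1.46 ± 0.13 (SE, limma adjusted p = 0.000793). ANAC078 (AT5G04410) and ANAC053 (AT3G10500), chosen after their values were seen, had log2 changes of 1.06 ± 0.15 and 0.67 ± 0.12. ANAC053 lost its call without glutamate replicate 2 (adjusted p = 0.0553). RCD1 (AT1G32230), which holds ANAC013 and ANAC017 inactive, was at 84.2 and 80.7 RPKM in glutamate libraries and at 82.4 and 80.1 RPKM in control libraries (limma adjusted p = 0.913).

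Of 16 genes for the cytochrome respiratory chain and ATP synthase, 1 was higher (6.25%, beside 16.3% of all tested genes). This was CYTC-2 (AT4G10040), for cytochrome c, which averaged 97.6 ± 8.97 RPKM in glutamate libraries and 24.0 ± 0.52 RPKM in control libraries (SD, n = 2 each, log2 change 1.98 ± 0.13, limma adjusted p = 0.000298). Its paralogue CYTC-1 (AT1G22840) was at 198 and 307 RPKM in glutamate libraries and at 143 and 183 RPKM in control libraries and did not pass (limma adjusted p = 0.127). Of 16 tested citrate cycle and malate enzyme genes, 2 were higher (12.5%, beside 16.3% of all tested genes), both chosen after their values were seen. The malic enzyme gene NAD-ME2 (AT4G00570), whose product uses malate inside mitochondria, rose to 53.9 and 57.2 RPKM in glutamate libraries, against 32.5 and 30.7 RPKM in control libraries (limma adjusted p = 0.00571). AT3G55410, for the E1 component of 2-oxoglutarate dehydrogenase, had a log2 change of 0.66 ± 0.18 (SE, limma adjusted p = 0.0412) and lost its call without glutamate replicate 1 (adjusted p = 0.126) and without control replicate 2 (adjusted p = 0.130). Of 10 tested mitochondrial chaperone and protease genes, 1 was higher and 1 lower (10% each, beside 16.3% and 14.6% of all tested genes). Both are for inner membrane proteases and were chosen after their values were seen. FTSH10 (AT1G07510) had a log2 change of 0.45 ± 0.12 (SE, limma adjusted p = 0.0415) and lost its call without any single library (adjusted p = 0.103 to 0.230). FTSH3 (AT2G29080) had -0.61 ± 0.12 (limma adjusted p = 0.0137) and lost its call without glutamate replicate 1, glutamate replicate 2 or control replicate 1 (adjusted p = 0.0547 to 0.0705).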

How the data were processed

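Whole-seedling RNA was taken up in Trizol and made into Illumina TruSeq libraries, per the labels' protocols. The genome build was TAIR10 and SAMtools was among the tools, per the submitters' processing notes. Not given in the sources used here: aligner, read counter, strand setting, versions. The authors deposited RPKM values in a table labelled as TMM normalization, with a length per gene and a fraction between 0 and 1 named maxMultiRatio, which the file header does not define; where it was 0, recovered reads were whole (within 0.01) for at least 99.9% of genes, and for 85.3% to 86.2% of all genes. Reads were recovered from the lowest value times length in each library, taken as 0.5 read. The libraries of a group differed by more than counting noise (chi-square per degree of freedom 27.1 in glutamate and 31.7 in control).

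Values were transformed to log2(RPKM + 1), genes averaging under 1 RPKM were dropped, and the rest went through a two-sided limma fit with an intensity trend (limma 3.58.1, R 4.3.3) with Benjamini-Hochberg adjustment over all 17750 genes and an adjusted p under 0.05 as the call. The fit has 2 residual degrees of freedom and a prior worth 3.49. With 2 libraries a group, no exact permutation test can reach the threshold, and none was run. The steps were run on simulated reads, drawn independently for each library with the same dispersion for every gene. Such reads lack the shared deviations of the same-numbered libraries here, so that run does not bear on the calls in these data. The 10 genes and all gene lists were chosen with earlier results of these data known. Named were the 10 genes and up to 3 list genes in each direction with a called log2 change of at least 1. Also named were the 3 genes nearest in pattern to UCP5, AOX1A, OM66 and ANAC017. Other names are marked as chosen after their values were seen or stand for a family member beside them. RCD1, AAC1, AT5G09570, SCR, EXPA7 and IRT1 fall under none of these rules and were named with their values known. All list identifiers matched the RefSeq TAIR10.1 gene table, which also gave names, gene structures and upstream sequences. The deposited table holds no coordinates, so none were carried between builds. Library totals, quantile normalization, the median log2 change set to 0, centring on control genes, other pseudocounts and filters, a replicate block, voom weights and leaving out each library were tried as alternatives.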

Additional observations from a re-analysis of the deposited data

How the results depend on the processing

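Of the 10 genes, UCP5, DIC2, OM66, NDB2, AOX1A and AOX1D were called higher in every alternative in which they were tested. UCP5 ranged from 6.67 to 7.16, DIC2 from 5.57 to 5.88 and OM66 from 5.48 to 6.21 in log2 difference. Every alternative reuses the libraries on which the 10 genes were chosen, so their calls only describe the settings and add no support. With a minimum mean of 5 RPKM, OM66 and NDB2 passed only through their glutamate libraries, as their control means were 2.05 and 4.56 RPKM. No alternative turned the sign of a gene that was called and is named here. Over all genes 5473 were called, 2888 higher and 2585 lower. Without the filter on low values, which nearly doubles the genes tested to 33602, 3610 were called, 1335 of them lower, and the other mitochondrial list genes counted 9 higher and 3 lower. With library totals 4361 were lower, 1 of the 10 genes was lower (ANAC013), and the other list genes counted 9 higher and 11 lower. With the replicate number as a block 9725 genes were called, 4445 higher and 5280 lower, 1 of the 10 genes was lower (ANAC013), and the other list genes counted 25 higher and 13 lower; the cause was not tested. Libraries with the same number deviated together (r = 0.60 across genes, which are not independent), but with 2 pairs they share only a number. Leaving out 1 library at a time gave 4231 to 4799 calls, 2490 to 2727 higher and 1741 to 2072 lower; 6 or 7 of the 10 genes were higher and 0 lower, and 11 to 13 of the other list genes were higher and 5 to 7 lower. The lone library of its group is then assumed to vary like the other pair. The largest changes in the share of higher calls were 36.0% with library totals, 43.9% with quantile normalization, 63.0% without the filter and 63.2% when centred on control genes, against 52.8%, while the median over tested genes stood at -0.23 (log2) with library totals and -0.06 as deposited. The filter on low values decided the calls of UCP1, NDA1, AAC3, APC2, AT5G64400, MGE2, GSTU24, CYP81D8, WRKY15, FTSH10 and AT3G55410, which were lost without it. Library totals ended those of APC2, AT5G64400, MGE2, FTSH10 and AT3G55410, quantile normalization those of AT5G64400, WRKY15 and AT3G55410, centring on control genes those of NDA1 and AAC3, and a median set to 0 that of AAC3. UPOX rests on 34 to 65 reads a library, and AOX1D on 30 and 53 reads in control libraries.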
